A study of Elaeis guineensis with 9 samples.

Results

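Leaf transcript levels of Deli x SP540 oil palms were compared with those of Deli x Yangambi oil palms, with the libraries matched by oil yield class. Both are Tenera palms of the African oil palm, Elaeis guineensis. The Deli x SP540 group held 3 libraries, 1 each from palms classed as low, medium and high yielding, and the Deli x Yangambi group held 3 libraries of the same classes. A further 3 libraries of Deli x LaMe, likewise 1 per class, entered the fit and serve here as a further point of comparison. All palms were 7 years old, had 4 years of yield records and grew in 1 field, and tissue came from frond 17. These 6 libraries of 9 were compared over the transcript rows with at least 1 TPM in at least 3 of the 9 libraries, which were 30576 of the 51490 rows of the deposited table (59.4%). TPM is a transcript's share of all transcripts of a library after correction for transcript length. A transcript row is 1 RefSeq transcript model, so a gene with several models has several rows. Of the rows tested, 27021 were mRNA models and 3555 (11.6%) non-coding models, and 20730 could be paired with 15230 genes of a RefSeq gene table.

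Tenera palms bear the thin-shelled fruit grown for oil and come from crossing thick-shelled dura mothers with shell-less pisifera fathers. Deli is a dura population kept in South-East Asia, whereas SP540, Yangambi and LaMe name the African-derived origins that supply the other parent. Palms of the groups compared therefore share the Deli side and differ in the pollen side. Leaf mRNA pools mix all leaf cell types, and fewer cells of a type cannot be told apart from less RNA per cell.

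With 1 library per cross and yield class, the 3 yield classes act as the replicates of a cross. No source used here states if palms were pooled or if libraries were made in batches, so a batch and a population cannot be told apart, and the spread behind each p-value is that between single libraries. Rows at 1 TPM or more numbered 27048, 28320 and 27167 in the low, medium and high yield SP540 libraries, against 26783, 26745 and 26390 in the Yangambi libraries and 26435 to 26991 in the LaMe libraries. The medium yield SP540 library had the most of them, and the SP540 and Yangambi ranges did not overlap. Tested rows held 99.5 to 99.7% of TPM in every library, and non-coding rows 5.60 to 6.68%. A TPM table keeps no read depth, so read depth is unknown and a 0 is only said to be listed. Floral MADS-box genes, markers of another organ, were low in all 9 libraries. Of 8 such genes only DEF1, a petal and stamen identity gene, was tested, at 4.57, 4.80 and 6.23 TPM in SP540 libraries and 2.68, 5.69 and 3.29 TPM in Yangambi libraries, and the other 7 stayed at or below 0.735 TPM.

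Few rows could be called different between the populations against the spread between libraries. A row without a call was not thereby shown to be alike in both. In limma on log2(TPM + 1), with population and yield class as terms and p-values adjusted over all rows, 1 of 30576 rows passed an adjusted p of 0.05 (0.00327%), higher in SP540. At an unadjusted p under 0.05 there were 2918 rows (9.54%), of which 1830 were higher (5.99%) and 1088 lower (3.56%) in SP540. The excess of higher rows moved with the scaling. The median difference over all rows was 0.065 on the log2 scale, and with each library centred on its median the same rule gave 1421 higher and 1379 lower rows, so that the share higher was 50.8% in place of 62.7%. Without the medium yield SP540 library the share was 55.1%. In 4542 rows (14.9%) the values of the SP540 libraries lay wholly above or wholly below those of the Yangambi libraries, 2888 above (9.45%) and 1654 below (5.41%).

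The row that passed was XM_019854211.2, a transcript model of LOC105055213. It was measured at 52.8, 45.9 and 55.1 TPM in the low, medium and high yield SP540 libraries, against 1.06 TPM, 0 and 1.49 TPM in the Yangambi libraries. Every SP540 library was far above every Yangambi library, and the LaMe libraries lay with Yangambi, listed at 0 in the low and medium yield libraries and at 0.920 TPM in the high yield library. SP540 exceeded Yangambi by 4.92 on the log2 scale (SE 0.337, 95% interval 4.12 to 5.71, limma adjusted p = 0.0463). The call stood close to the threshold. Of 21 alternatives 16 lost it, with adjusted p-values of up to 0.356, and with 1 library left out it held only without the low yield Yangambi library (adjusted p = 0.0285).

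The gene sum of LOC105055213 differed far less between the crosses than its single models did. Summed over its rows, the gene was at 111, 107 and 108 TPM in SP540 libraries, against 104, 93.8 and 99.97 TPM in Yangambi libraries, with 98.9, 118 and 107 TPM in LaMe libraries. The SP540 sums lay just above the Yangambi sums, and on the log2 scale they differed by 0.13 (SE 0.116, limma adjusted p = 0.744). XM_019854211.2 made up 47.6, 42.8 and 51.0% of the gene in SP540 libraries, against 1.02%, 0 and 1.49% in Yangambi libraries. A sister model, XM_010936971.3, was at 29.0, 40.6 and 33.4 TPM in SP540 libraries, against 79.1, 64.1 and 79.4 TPM in Yangambi libraries and 80.0 to 88.4 TPM in LaMe libraries. Its groups did not overlap, and its log2 difference was -1.10 (SE 0.162, limma adjusted p = 0.135). The 3 remaining tested models of the gene held 2.46 to 17.2% of it in the 6 libraries, with overlapping groups for XM_019854209.2 and XM_019854212.2. XR_002165856.2, the non-coding model, was at 5.13 to 6.60 TPM in SP540 libraries and 7.38 to 7.93 TPM in Yangambi libraries, with a limma adjusted p of 0.708.

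**Figure D1:**
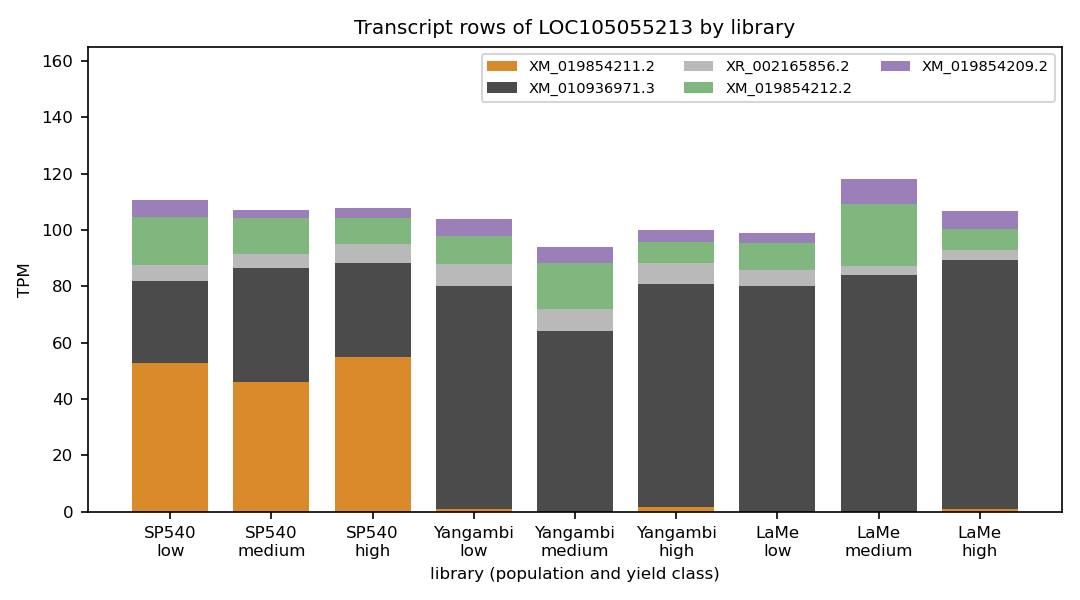
Stacked bars give the TPM (vertical axis) of the 5 tested transcript rows of LOC105055213 in each of the 9 libraries, SP540 at the left, Yangambi in the middle and LaMe at the right. XM_019854211.2 fills 45.9 to 55.1 TPM of the SP540 bars and at most 1.49 TPM of the Yangambi bars, while the height of the whole bar stays between 93.8 and 118 TPM.

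The share of each model within its gene was then tested across 8346 rows of 3316 genes with at least 2 tested rows and a gene mean of at least 5 TPM. The measure was the log2 ratio of a row to the rest of its gene, each with 1 TPM added. XM_019854211.2 was again the 1 row to pass (0.012%), with a log2 difference in share of 5.69 (SE 0.472, limma adjusted p = 0.0223), while 526 rows (6.3%) had an unadjusted p under 0.05. The share of its sister XM_010936971.3 did not pass (adjusted p = 0.438). The call in share was lost with a pseudocount of 0.1, with the 6 libraries alone and without any of 8 single libraries, and it held without the high yield SP540 library.

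The next smallest p-values in share, all at a limma adjusted p of 0.413, belonged to LOC105046448, LOC105047081, LOC105043747 and LOC105050023. In LOC105046448, XM_010925040.3 was at 8.85, 5.04 and 10.8 TPM in SP540 libraries and below 0.001 TPM in each Yangambi library, with 4.11, 4.76 and 9.53 TPM in LaMe libraries. The gene sum was at 23.7, 31.8 and 25.2 TPM in SP540 libraries, against 22.4, 22.9 and 25.02 TPM in Yangambi libraries, and these ranges overlapped. In LOC105047081, XM_010925886.2 made up 9.39% of the gene in the low yield SP540 library and close to 0 in the others, against 65.0, 43.7 and 71.9% in Yangambi libraries. Both genes thus had a model listed near 0 in most or all libraries of 1 cross while a sister model had a level in both. Levels of models of 1 gene rest on an estimated division of shared reads, and its part in these values was not tested.

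Where 1 model led in all 3 libraries of each cross, the leading model was usually shared. This held for 2208 genes, and in 15 of them (0.679%) the SP540 and Yangambi leaders differed. LOC105051352 was the most abundant of the 15. XM_010931731.3 led in SP540, at 231, 303 and 297 TPM against 219, 222 and 160.2 TPM in Yangambi libraries. XM_010931730.3 led in Yangambi, at 123, 39.5 and 40.9 TPM in SP540 libraries against 225, 240.3 and 216 TPM in Yangambi libraries. For this second model the crosses did not overlap, the LaMe libraries were lower still at 6.38 to 17.7 TPM, and the log2 difference was -1.94 (SE 0.366, limma adjusted p = 0.206). The LaMe libraries all shared the SP540 leader in 3 of the 15 genes and the Yangambi leader in 2.

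Behind XM_019854211.2 followed a group of rows just past the threshold. The 11 smallest adjusted p-values ran from 0.0463 to 0.0513, and they stand for 10 measurements, since XM_010945241.3 and XM_010945243.3 had identical values in all 9 libraries. Of the 11 rows, 7 were higher and 4 lower in SP540, and in all 11 the crosses did not overlap. The most precise of the lower rows was XM_010912221.3 of LOC105036450, at 27.7, 38.8 and 42.5 TPM in SP540 libraries, against 120.4, 118 and 124 TPM in Yangambi libraries. Here the LaMe libraries, at 34.3, 40.1 and 43.9 TPM, lay near the SP540 values and far below the Yangambi values, and the log2 difference was -1.73 (SE 0.141, limma adjusted p = 0.0509). XM_010944171.3 of LOC105060454 was at 9.83, 11.4 and 10.9 TPM in SP540 libraries and 0.230, 0.508 and 0 TPM in Yangambi libraries, with higher LaMe values of 35.1, 18.1 and 24.5 TPM. XM_010911439.3 of LOC105035751 was at 5.62, 5.28 and 4.99 TPM in SP540 libraries and listed at 0 in all 3 Yangambi libraries, and it too was higher in LaMe libraries, at 14.4 to 16.5 TPM. XM_029260827.1 was low in SP540 libraries, at 0, 1.54 and 1.29 TPM, against 10.2, 12.8 and 12.7 TPM in Yangambi libraries. These rows were chosen by their p-values, and the values describe them without adding support.

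**Figure D2:**
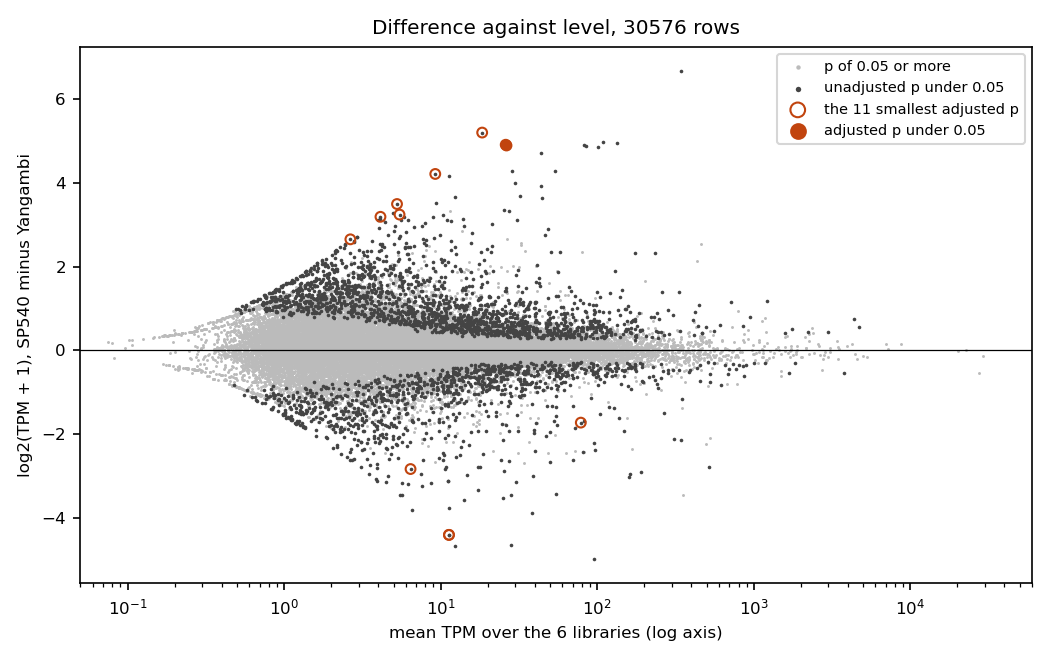
Each point is 1 of the 30576 rows tested, by its mean TPM over the 6 libraries (log axis) and its SP540 minus Yangambi difference in log2(TPM + 1). The filled circle is XM_019854211.2 at 4.92, the open circles are the rows with the 11 smallest adjusted p-values, and dark points have an unadjusted p under 0.05. Many dark points have large differences but no call.

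Rows with an ordered difference, of any size, were taken as those with a mean of at least 5 TPM over the 6 libraries, no overlap of the crosses and an unadjusted p under 0.01, a p-value that 2.6% of all rows tested had. There were 501 of them among 16860 rows at that level (2.97%), 322 higher and 179 lower in SP540. Of the higher ones 157 differed by at least 1 on the log2 scale and 24 by at least 3, and of the lower ones 89 and 15 did. The 12 largest in each direction, 24 rows in all, are described next. Their size and p-value chose them, so these are descriptions. In none of the 24 did the direction turn under any alternative, and 10 of them passed an adjusted p of 0.05 under at least 1. The rule of no overlap largely fixed that direction beforehand, so its stability adds no support. Some of the passes came from leaving out the library of a cross that lay nearest the other cross. XM_010913034.1 and XM_010937629.2 passed only without the low yield Yangambi library or the low yield class. XM_010909751.2 passed only without the low yield SP540 library or that class. Such passes add no support either.

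XM_010920932.3 had the largest difference of the higher rows. It was at 39.1, 45.2 and 26.2 TPM in SP540 libraries and below 0.001 TPM in each Yangambi library, and reached 1.75 TPM in 1 LaMe library. XM_029267555.1 was at 60.1, 27.3 and 79.1 TPM in SP540 libraries, against 0, 1.84 and 10.6 TPM in Yangambi libraries, and LaMe libraries at up to 7.58 TPM lay with Yangambi. XM_010912036.1, at 33.0, 31.6 and 6.28 TPM in SP540 libraries against 2.94 TPM, 0 and 0 in Yangambi libraries, was listed at 0 in all 3 LaMe libraries. In each of these rows the SP540 libraries stood above the other 6. XM_029261805.1, at 25.7, 6.37 and 22.02 TPM in SP540 libraries and 1.94 TPM, 0 and 0 in Yangambi libraries, had LaMe values of 1.65 to 3.95 TPM, again below SP540.

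XM_010935835.3 of LOC105054340 was listed at 0 in all 6 Yangambi and LaMe libraries. In SP540 it was at 30.0, 33.6 and 4.49 TPM, lowest in the high yield library. The gene sum ran the other way, at 92.1, 94.98 and 191 TPM in SP540 libraries, against 240 TPM, 279.7 TPM and 139 TPM in Yangambi libraries, and overlapped (log2 difference -0.82, SE 0.368, limma adjusted p = 0.493). Its other models, XM_019853692.2 and XM_019853693.2, were at 61.1 ± 44.3 and 42.4 ± 28.2 TPM in SP540 libraries, against 121 ± 38.6 and 98.5 ± 34.3 TPM in Yangambi libraries (SD, n = 3). The high yield SP540 library, where XM_010935835.3 was lowest, had the highest SP540 values of both.

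The non-coding rows XR_830533.2 and XR_830532.2 carry consecutive accession numbers and appeared on opposite sides. XR_830533.2 was at 11.8, 23.2 and 20.4 TPM in SP540 libraries and at or below 0.0173 TPM in Yangambi libraries. XR_830532.2 was at 3.34 TPM in the low yield SP540 library and close to 0 in the others, against 24.0, 20.6 and 19.5 TPM in Yangambi libraries. Their sum, at 15.1, 23.2 and 20.4 TPM in SP540 libraries and 24.0, 20.6 and 19.5 TPM in Yangambi libraries, overlapped between the crosses. In LaMe libraries the sums were 16.9 to 18.6 TPM. XR_830532.2 was at 0.0351, 6.08 and 10.6 TPM there, so the low yield LaMe library held almost only XR_830533.2. Neither row could be paired with a gene here, so whether they are models of 1 gene was not tested.

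Of the 12 lower rows, 7 were under 1 TPM in every SP540 library. XM_010937496.3, the single row of LOC105055613, was listed at 0 in all 3 SP540 libraries and at 23.9, 24.4 and 25.8 TPM in Yangambi libraries, a spread of 0.964 TPM (SD, n = 3). In LaMe it was at 0, 23.9 and 1.80 TPM, so that 1 LaMe library had the Yangambi level and the others did not. XM_010938566.2, the single row of LOC105056386, was at 0, 0.505 and 35.9 TPM in SP540 libraries, against 37.5, 371 and 123 TPM in Yangambi libraries and 299 to 530.2 TPM in LaMe libraries. Its crosses nearly touched, between 35.9 TPM in the high yield SP540 library and 37.5 TPM in the low yield Yangambi library.

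The non-coding row XR_833744.3 was at 8.39 TPM, 0 and 0 in SP540 libraries, against 41.4, 54.4 and 64.3 TPM in Yangambi libraries. XM_010909751.2 was at 9.13 TPM in the low yield SP540 library and below 0.001 TPM in the others, against 23.9, 22.2 and 29.1 TPM in Yangambi libraries and 29.3 to 41.2 TPM in LaMe libraries. In both rows the low yield SP540 library was the only SP540 library with a level. XM_029261429.1 was listed at 0 in all 3 SP540 libraries, and in Yangambi libraries it was at 18.8, 10.6 and 4.65 TPM. XM_010913045.3 of LOC105037369 stayed at 0.104 to 0.522 TPM in SP540 libraries, against 2.26, 20.2 and 22.5 TPM in Yangambi libraries, where the low yield library was near the LaMe values of 0.764 to 2.32 TPM.

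XM_010925965.3 was listed at 0 in the low and medium yield SP540 libraries and at 1.09 TPM in the high yield one, against 20.2, 7.58 and 7.99 TPM in Yangambi libraries. XM_010925963.3, paired with LOC105047157, was at 0, 0 and 0.199 TPM in SP540 libraries, against 2.38, 20.5 and 10.8 TPM in Yangambi libraries. The first was listed at 0 in all 3 LaMe libraries, whereas the second had 6.14 to 19.2 TPM there. Low SP540 values were thus shared by both rows, but the LaMe libraries split them.

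Among the 24 rows, 9 could be paired with a gene, 4 of them with a gene of several rows. LOC105055213 and LOC105054340 are given above, and in the other two genes the most abundant row on average was a sister. XM_029263263.1 of LOC105040753 was listed at 0, 0 and below 0.01 TPM in SP540 libraries and at 11.8, 12.1 and 15.4 TPM in Yangambi libraries, while its sister XM_010917426.3 was at 27.0 ± 5.72 TPM in SP540 libraries and 26.5 ± 9.04 TPM in Yangambi libraries (SD, n = 3). The gene sum was at 33.2, 27.0 and 21.9 TPM in SP540 libraries, against 47.0, 40.9 and 38.99 TPM in Yangambi libraries, without overlap (log2 difference -0.63, SE 0.126, limma adjusted p = 0.192). XM_029266304.1 of LOC105050819 was listed at 0 in all 3 SP540 libraries and at 6.03, 18.3 and 8.73 TPM in Yangambi libraries. Its sister XM_010930990.3 was at 40.6, 68.3 and 59.0 TPM in SP540 libraries, against 30.7, 32.1 and 52.8 TPM in Yangambi libraries, and the gene sums overlapped.

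**Figure D3:**
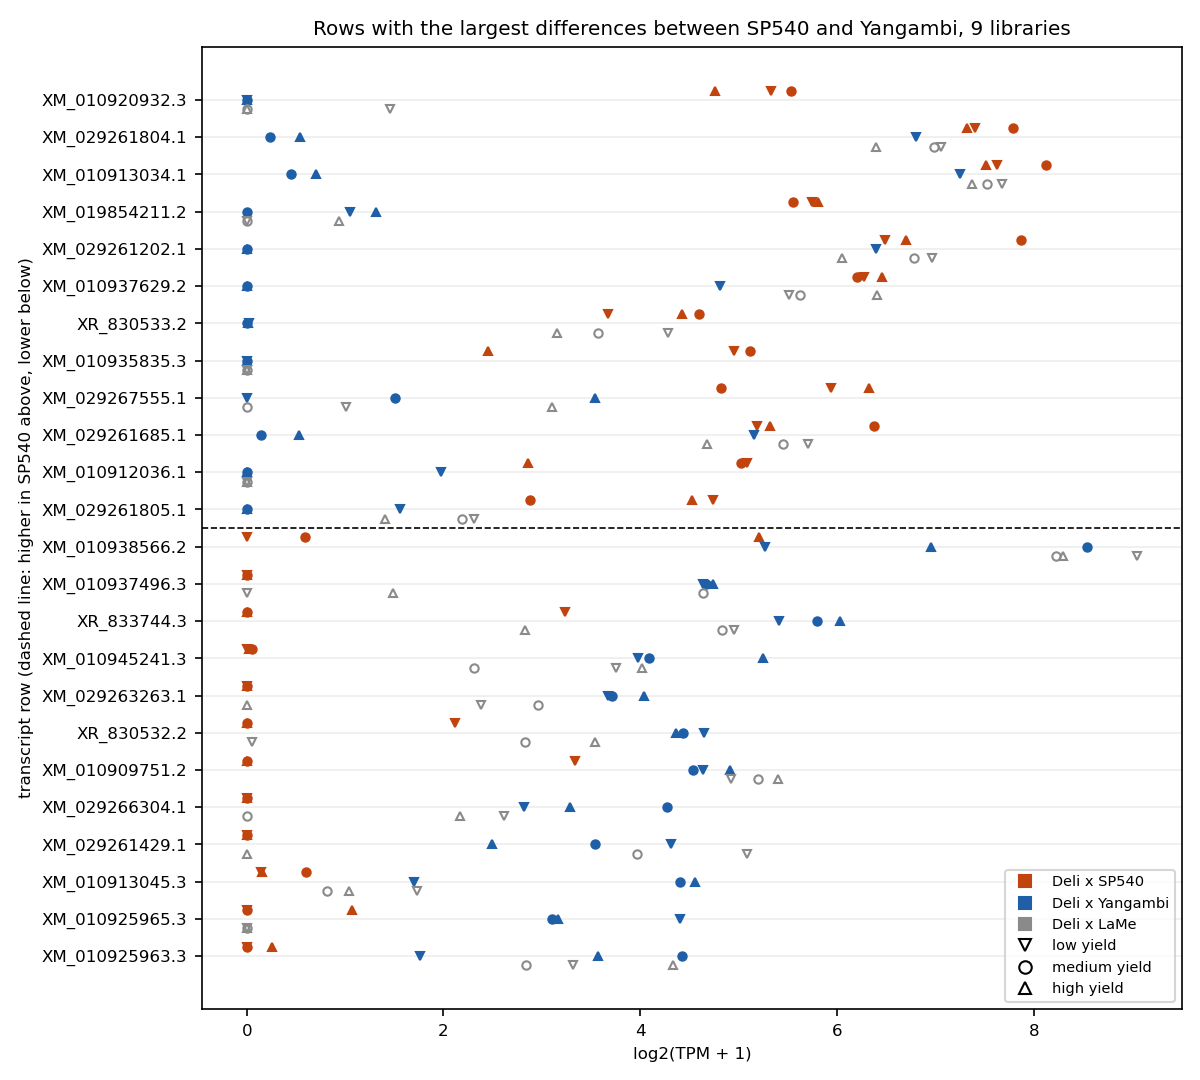
Values in log2(TPM + 1) (horizontal axis) of the 12 rows highest and the 12 rows lowest in SP540, with 1 line per row and 1 symbol per library, coloured by population and shaped by yield class. In the upper block several rows have a single blue triangle, the low yield Yangambi library, near the SP540 symbols, and LaMe symbols fall with SP540 in some rows and with Yangambi in others.

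Several of the higher rows differed mainly through the medium and high yield Yangambi libraries. XM_029261804.1 was at 169, 219 and 159 TPM in SP540 libraries, against 111, 0.182 and 0.456 TPM in Yangambi libraries. XM_010913034.1 was at 196, 277 and 181 TPM in SP540 libraries, against 151, 0.364 and 0.628 TPM in Yangambi libraries, and XM_010937629.2, the single row of LOC105055701, at 76.4, 72.9 and 87.0 TPM against 27.1 TPM, 0 and 0. In all of these the low yield Yangambi library kept a level of at least 27.1 TPM while the others of its cross were near 0, and the LaMe libraries were at 44.6 to 203 TPM.

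After these values were seen, rows under 1 TPM in the medium and high yield Yangambi libraries and at 5 TPM or more in each of the other 7 were counted. There were 13 such rows, 12 of them without a paired gene, and 5 were among the 12 higher rows. Together they came to 970, 1483 and 968 TPM in the SP540 libraries, against 809, 1.99 and 3.21 TPM in the low, medium and high yield Yangambi libraries and 814 to 1006 TPM in the LaMe libraries. The largest single value in the medium and high yield Yangambi libraries was 0.710 TPM, in XM_019846767.1. XM_029261686.1, at 147, 196 and 138 TPM in SP540 libraries and 126, 0.279 and 0 TPM in Yangambi libraries, and XM_010912954.2, at 78.5, 87.6 and 80.0 TPM against 75.5 TPM, 0 and 0, followed the same order. In the low yield pair the log2 differences of the 13 rows ran from -0.47 to 1.46, whereas the fitted population differences ran from 2.41 to 4.97. The rows were picked for this pattern, so no test is given, and the part of palm identity, pooling or batch in it was not tested. No count is given for other pairs of libraries. XM_010909751.2 and XR_833744.3, described above, met the same rule with the medium and high yield SP540 libraries as the near-absent ones.

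**Figure D4:**
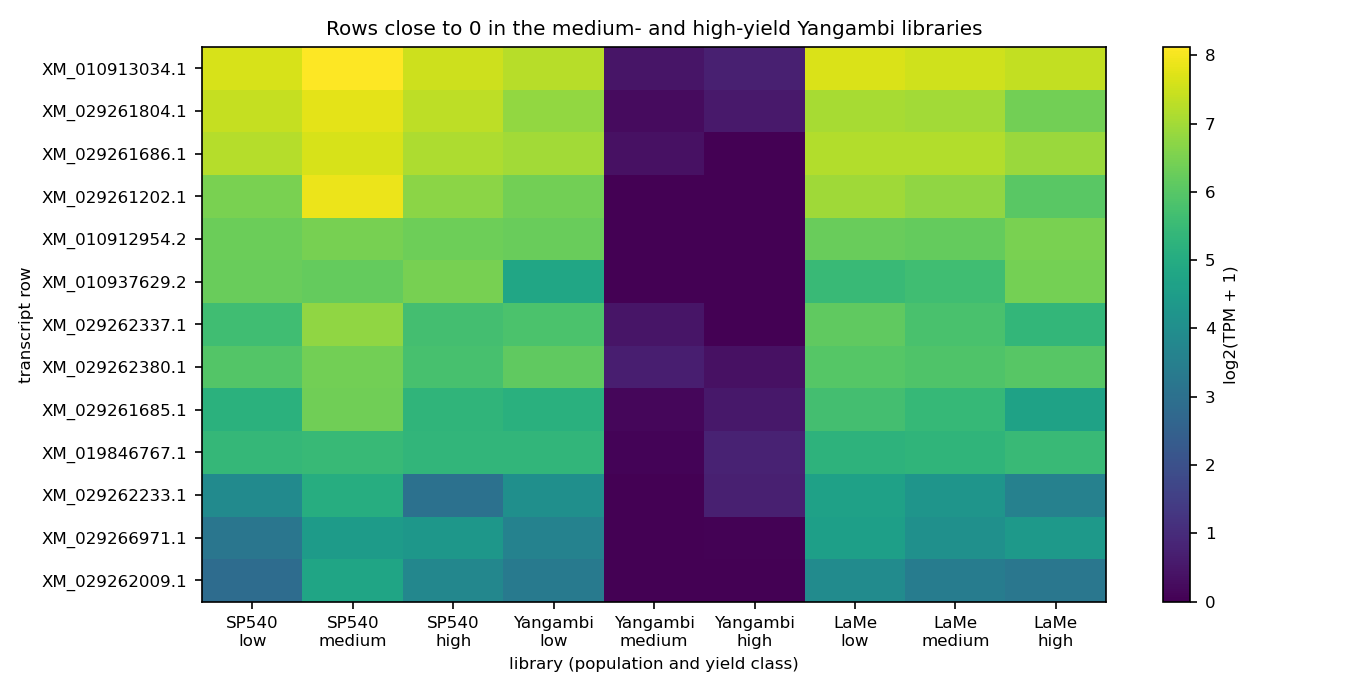
Colour gives log2(TPM + 1) for 13 transcript rows (vertical) in the 9 libraries (horizontal, SP540, Yangambi, LaMe). The medium and high yield Yangambi columns are dark in every row, with summed levels of 1.99 and 3.21 TPM, against 809 TPM in the low yield Yangambi column.

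In other abundant rows, too, libraries of 1 cross did not share a level. XM_010934760.3 of LOC105053547, chosen after its values were seen, had the largest log2 difference of all rows tested but overlapped between the crosses. It was at 1168, 903 and 0 TPM in SP540 libraries, listed at 0 in all 3 Yangambi libraries, and at 198, 134 and 171 TPM in LaMe libraries. The high yield SP540 library was thus the one library outside Yangambi in which this abundant transcript was listed at 0 (limma adjusted p = 0.422). XM_010912317.3, also chosen after its values were seen, was at 157, 114 and 136 TPM in SP540 libraries, against 88.9 TPM, 0 and 0 in Yangambi libraries, and at most 1.77 TPM in LaMe libraries.

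Rows present in 1 cross and near absent from the other were rare. With at least 5 TPM in all 3 libraries of one cross and under 0.1 TPM in all 3 of the other, 6 rows were present in SP540 (0.0196%) and 7 in Yangambi (0.0229%), where the 7 stand for 6 measurements. By the same rule 20 rows were present in SP540 and absent from LaMe, and 13 the other way, while 17 were present in Yangambi and absent from LaMe, and 22 the other way. The comparisons share libraries, and no test was made between these counts.

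Of the 6 rows present in SP540, XM_010920932.3, XR_830533.2 and XM_010925040.3 are described above. XM_029263709.1, the single row of LOC114913993, was at 12.8, 11.2 and 7.57 TPM in SP540 libraries and listed at 0 in all 3 Yangambi libraries. The non-coding XR_003800759.1, the single row of LOC114914135, was at 8.74, 5.31 and 9.67 TPM in SP540 libraries and listed at 0 in the other 6. XM_010906494.2 was the most even, at 8.52, 7.86 and 8.34 TPM in SP540 libraries, at or below 0.0139 TPM in Yangambi libraries and at or below 0.00646 TPM in LaMe libraries. These 3 rows were near absent from LaMe as well, where the highest value among them was 0.121 TPM.

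Of the rows present in Yangambi, XM_010945241.3 was at or below 0.0376 TPM in SP540 libraries and at 14.8, 16.0 and 36.9 TPM in Yangambi libraries, with 3.97 to 15.3 TPM in LaMe libraries. XM_019850045.2 was listed at 0 in all 3 SP540 libraries, against 7.07, 6.75 and 9.69 TPM in Yangambi libraries, and XM_019849380.2 was at or below 0.00275 TPM in SP540 libraries, against 9.48, 6.38 and 5.19 TPM in Yangambi libraries. Each of these rows reached at least 5 TPM in some LaMe library. The remaining 3 measurements are the rows of LOC105055613, LOC105040753 and LOC105050819 given above, which also appeared in at least 1 LaMe library. Under 1 TPM in all 3 LaMe libraries were thus 3 of the 6 rows present in SP540 and 0 of the 7 present in Yangambi, a difference that was not tested.

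The 3 matched pairs were then set side by side. A log2 difference of at least 1 between the SP540 and the Yangambi library was found in 3468 rows higher and 3087 lower in the low yield pair (21.4% of rows), 4030 and 2407 in the medium yield pair (21.1%) and 3374 and 2736 in the high yield pair (19.98%). Such a difference appeared in at least 1 pair for 12752 rows, and for 7554 of these (59.2%) in exactly 1. It recurred in all 3 pairs with SP540 higher for 246 rows (1.93%) and with SP540 lower for 172 rows (1.35%), whereas 2449 rows (19.2%) had such differences in opposite directions in different pairs. Among rows with a mean of at least 5 TPM, 4297 differed in some pair, 74 in all 3 upward and 58 in all 3 downward, and 524 in opposite directions. Differences in the same direction in 2 or 3 pairs numbered 2749 over all rows and 811 at that level, more than the opposite ones in both cases, whereas those shared by all 3 pairs were fewer than the opposite ones. The median log2 difference over all rows was 0.007 in the low, 0.107 in the medium and 0.022 in the high yield pair. The excess of higher over lower rows in these counts includes that shift, and the counts were not repeated with centred libraries. With 3 pairs an exact two-sided permutation test of a single row cannot give a p below 0.25.

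**Figure D5:**
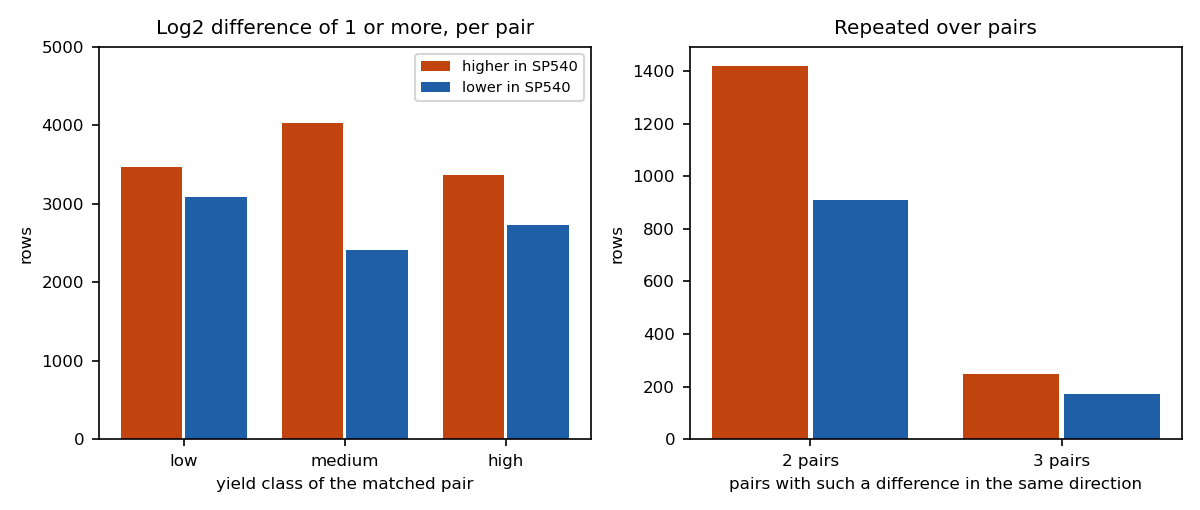
Left, numbers of rows with a log2 difference of at least 1 between the SP540 and the Yangambi library of each yield class, higher in SP540 beside lower in SP540. Right, numbers of rows with such a difference in the same direction in exactly 2 pairs (1421 higher and 910 lower) and in all 3 pairs (246 higher and 172 lower).

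The LaMe libraries show on which side the remaining cross fell. Over all rows tested the LaMe mean was nearer to SP540 than to Yangambi in 55.1%. Of the 322 higher rows with an ordered difference it was nearer to SP540 in 212 (65.8%), and of the 179 lower rows in 111 (62.0%). The share over all rows includes rows under 5 TPM and none was taken at that level, so these shares are not like for like. Among the 12 largest higher rows LaMe was at 1 TPM or more in all 3 libraries in 7 rows and under 1 TPM in all 3 in 3 rows. Among the 12 largest lower rows the numbers were 5 and 1.

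Curated gene models gave no call. The gene table gave a short name to 31 genes, 21 of them with a tested row, and of the 25 tested curated models 0 passed an adjusted p of 0.05, with 4 higher (5.99% of all rows) and 0 lower (3.56% of all rows) in SP540 at an unadjusted p under 0.05. The median log2 difference of these 25 was 0.14, beside 0.065 over all rows. CAT2, which encodes catalase, the peroxisomal enzyme that removes hydrogen peroxide, was at 7189, 5415 and 4469 TPM in SP540 libraries, against 3458, 4204 and 3693 TPM in Yangambi libraries. The crosses did not overlap, LaMe lay in the SP540 range at 5206 to 6399 TPM, and the log2 difference was 0.57 (SE 0.188, limma adjusted p = 0.447). M39A was at 504, 589 and 502 TPM in SP540 libraries, against 314, 328 and 421 TPM in Yangambi libraries (adjusted p = 0.387), and SAG at 300.3, 255 and 251 TPM against 200.4, 231 and 225 TPM (adjusted p = 0.522). CHAC1, at 874, 778 and 556 TPM in SP540 libraries and 440.0, 423 and 585 TPM in Yangambi libraries, overlapped between the crosses (adjusted p = 0.502).

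EF1, a translation elongation factor gene, had rows that differed from each other. Its predicted model XM_010924230.3 was at 111, 119.6 and 62.8 TPM in SP540 libraries, against 55.3, 30.7 and 45.7 TPM in Yangambi libraries, without overlap (log2 difference 1.12, SE 0.289, limma adjusted p = 0.348). The curated model of EF1 was at 370.2, 330.4 and 557 TPM in SP540 libraries and 373, 483 and 522 TPM in Yangambi libraries, and the sum of both overlapped. EF1B, another elongation factor subunit gene, was at 681, 503 and 366 TPM in SP540 libraries and 267, 382 and 385 TPM in Yangambi libraries. These overlapped, with the high yield SP540 library below the medium and high yield Yangambi libraries.

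Genes of water transport, lipid and isoprenoid synthesis and basic cell structure mostly overlapped between the crosses, with RGP1 and the curated dxs model as exceptions. AQP, an aquaporin that passes water through membranes, was at 688, 455 and 585 TPM in SP540 libraries and 716, 717 and 559 TPM in Yangambi libraries. GPAT, which encodes an acyltransferase acting on glycerol-3-phosphate early in membrane and storage lipid synthesis, was at 133, 143 and 128 TPM in SP540 libraries and 103, 124 and 129.7 TPM in Yangambi libraries. MnSOD, a manganese superoxide dismutase, was at 100.3, 77.1 and 199 TPM in SP540 libraries and 76.1, 172 and 103 TPM in Yangambi libraries. In MnSOD the highest SP540 value came from the high yield library and the highest Yangambi value from the medium yield library. ACT1, an actin, averaged 33.0 ± 5.58 TPM in SP540 libraries and 32.3 ± 6.97 TPM in Yangambi libraries (SD, n = 3), and PEX13, named for a peroxisomal membrane protein, 344 ± 24.4 and 329 ± 21.7 TPM. RGP1, whose product takes part in plant cell wall synthesis, lay just higher in SP540, at 42.1, 41.2 and 41.2 TPM against 39.9, 40.5 and 34.6 TPM in Yangambi libraries. The curated model of dxs, which encodes an early enzyme of isoprenoid synthesis in plastids, lay lower, at 0.520, 0.899 and 0.881 TPM in SP540 libraries against 0.991, 1.02 and 0.928 TPM in Yangambi libraries. Neither RGP1 nor this model passed the test. The predicted model of dxs was more abundant in both crosses, at 4.92, 7.95 and 11.6 TPM in SP540 libraries. Its Yangambi values, 4.84, 8.85 and 1.95 TPM, overlapped with these (log2 difference 0.66, limma adjusted p = 0.843). Besides the 4 curated models named before these, the other curated models had log2 differences of -0.37 to 0.86, with the smallest unadjusted p at 0.0588 (EF1B).

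How large a difference could be resolved varied with the mean level over the 9 libraries. The share of rows with an unadjusted p under 0.05 was 6.60% under 2 TPM, 8.69% at 2 to 5 TPM, 9.96% at 5 to 20 TPM, 12.1% at 20 to 100 TPM and 15.2% at 100 TPM or more. Over the same bins the median 95% interval of a log2 difference reached 1.15, 1.06, 0.635, 0.411 and 0.370 to either side. Non-coding rows had such p-values in 10.5% of cases and mRNA rows in 9.42%. Rows at exactly 3 libraries with 1 TPM, just inside the rule for testing, numbered 2113, with a median level of 0.823 TPM, and those at exactly 2 libraries, just outside it, numbered 2499, with 0.566 TPM.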

How the data were processed

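Leaf RNA of 9 libraries was extracted with a Norgen kit and sequenced from TruSeq mRNA libraries, per the labels' protocols. The submitters' processing notes name fastp, kallisto and DESeq2, without versions, and no source used here gives the transcript set or genome build. The deposited values are TPM (column sums of 1000000), although the table is named as counts, so no count test was run. kallisto divides reads shared by similar transcripts by estimation, which makes values of near-identical rows uncertain, and 20 tested rows shared all 9 values with another.

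Rows were paired by accession without version with a RefSeq gene table of assembly EG11 (31716 rows, 61.6%, of 21914 genes, 1009 also with version), used for names and gene order only. It gives no product descriptions, so gene lists by product and leaf markers could not be applied. limma 3.58.1 (R 4.3.3, statmod 1.5.0) fitted log2(TPM + 1), a scale that understates changes of low rows, on additive population and yield terms, with a trended robust prior, 4 residual and 3.01 to 3.1 prior degrees of freedom, and Benjamini-Hochberg adjustment at 0.05. The fit was checked on simulated data with independent normal noise around the mean of each row. Those data held no yield effect and did not mimic listed zeros, so p-values of rows with such zeros were not checked. Named rows were the called row, the 12 highest and 12 lowest by the rule given above, curated models, the smallest p-values in isoform share and rows present in 1 cross. The members and lists were chosen with earlier results of these data known. Alternatives were other pseudocounts, filters, scalings, priors and terms, gene sums, and libraries or yield classes left out.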

Additional observations from a re-analysis of the deposited data

How the results depend on the processing

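The number of rows passing an adjusted p of 0.05, 1 as reported, was 1 with median centring, 5 and 3 with pseudocounts of 0.1 and 5, 7 with a plain prior, 14 with rows summed per gene and 47 with no yield term. It was 0 with no filter, with at least 5 TPM in 3 libraries, with quantile normalization and with the 6 libraries alone. With single libraries left out it ran from 0 to 11, at 11 without the low yield Yangambi library, 3 without high yield SP540 and 0 without medium yield SP540, high yield Yangambi or any LaMe library. Leaving out a yield class gave 10 (low), 0 (medium) and 2 (high). The number of rows passing in isoform share, 1 as reported, was 0 with a pseudocount of 0.1 and with the 6 libraries alone, 1 with a pseudocount of 5 and with no yield term, and 0 to 1 with single libraries left out. The 13 rows present in 1 cross and near absent from the other became 129 with presence at 1 TPM, 6 with presence at 10 TPM, 5 with absence as listed at 0, 18 with absence under 1 TPM, and 21 to 43 with single libraries left out. None of the 43 rows whose level differences were recomputed changed direction in any alternative, whereas 16 of 26 other rows of named or curated genes, given by level or range, did in at least 1. The contrast follows largely from the choice of rows, since the 26 had an unadjusted limma p of 0.05 or more. Most of the 43 were picked by small p-values or by crosses that did not overlap. Differences of the named gene sums were not recomputed, and the median difference over all rows, 0.065, was -0.002 with quantile normalization. The labels give no replicate numbers, and yield class, which pairs the libraries, is already a term of the fit. The cause of these movements was not tested. Read depth is unknown.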

Other observations

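Genes were examined in their order on the EG11 assembly, by the most abundant tested row of each gene. Adjacent here means the next gene with a tested row, so untested genes may lie between. Of 15047 genes placed this way, 1348 (8.96%) had an unadjusted p under 0.05 between SP540 and Yangambi, and 147 of 15030 adjacent pairs had both members under it, 93 in the same direction and 54 in opposite directions. Of the neighbours of such genes, 10.9% were also under 0.05. Runs of at least 3 adjacent genes in 1 direction numbered 12, and those described here were chosen after their values were seen. How many runs would arise without a population difference was not estimated. LOC114914124, LOC105044264 and LOC105044262, all higher in SP540, formed one. LOC114914124 was at 16.6, 19.5 and 11.48 TPM in SP540 libraries, against 6.40, 2.95 and 5.88 TPM in Yangambi libraries. LOC105044264 was at 22.6 ± 3.11 TPM in SP540 libraries, against 6.62 ± 3.28 TPM in Yangambi libraries (SD, n = 3), and LOC105044262 at 24.5, 28.7 and 21.1 TPM against 9.10, 3.42 and 9.67 TPM. The crosses did not overlap in any of the 3 genes, and the medium yield Yangambi library was the lowest in each. All 3 had a limma adjusted p of 0.244 or more, and sequence similarity between them was not examined here.

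A further run joined LOC105036773, the non-coding gene LOC105036243 and LOC105034598. LOC105036773 was at 119, 85.7 and 92.3 TPM in SP540 libraries, against 36.7, 35.0 and 36.9 TPM in Yangambi libraries and 12.4 to 17.9 TPM in LaMe libraries (log2 difference 1.41, SE 0.170, limma adjusted p = 0.0942). LOC105036243 was at 176, 80.2 and 133 TPM in SP540 libraries, against 65.8, 66.4 and 62.7 TPM in Yangambi libraries and 1.90 to 3.76 TPM in LaMe libraries. For these 2 genes the order of the crosses was SP540, Yangambi, LaMe, with no overlap between any pair of crosses. LOC105034598 did not follow this order, at 14.2, 13.2 and 8.30 TPM in SP540 libraries, against 7.97, 3.94 and 2.49 TPM in Yangambi libraries and 4.34 to 6.23 TPM in LaMe libraries, where Yangambi and LaMe overlapped.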
